A study of Mus musculus with 19 samples.

Results

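The integrated stress response was examined in mouse liver RNA through 10 genes, Atf4, Atf5, Atf3, Ddit3, Asns, Psat1, Trib3, Ppp1r15a, Chac1 and Sesn2, which were picked by symbol from the 24054 genes of the deposited expression table. They encode the transcription factor ATF4, related factors and well known targets of ATF4. They were selected with the contrast between knockout and control livers already known, so the values below are a description and carry no test. All 10 were in the table, and 9 passed the filter on low values used for the comparison (a mean of at least 1 over the 6 livers). Psat1 did not pass. Asns passed only through the knockout livers, since every control liver lay under 1.

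The livers came from C57BL/6 mice in which exons 3 and 4 of Raly, which encodes a heterogeneous nuclear ribonucleoprotein, were flanked by loxP sites on both alleles. Mice of both groups received an adeno-associated virus of serotype 8 with the TBG promoter, which is active in hepatocytes. The virus carried Cre in 3 mice (L-RalyKO) and green fluorescent protein in 3 mice (controls, labelled wild type). The animals were fed chow, and the methods give male mice unless stated otherwise. The controls therefore shared the floxed alleles and the virus with the knockouts. Raly in other cells of the liver was not measured separately. RNA was taken from liver tissue, so that fewer cells of a type and less RNA per cell cannot be told apart. Each liver gave 1 library, replicate numbers were shared between different animals, and the ATAC-seq and ChIP-seq samples of the study were not analysed here.

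In this response, kinases that sense amino acid shortage, misfolded protein in the endoplasmic reticulum, double-stranded RNA or heme shortage phosphorylate the translation initiation factor eIF2. General protein synthesis then slows, while the mRNA of Atf4 is translated more, through upstream open reading frames. ATF4 protein activates genes of amino acid synthesis and transport, tRNA charging, glutathione breakdown and, with CHOP, cell death, as well as feedback inhibitors. Atf4 and Atf5 are in large part controlled at translation, which RNA levels do not measure.

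The values are read counts of each gene after scaling for the size of the library, and are not divided by gene length. In these libraries 1 read was worth a value of 0.0263 to 0.0351. Total reads were between 28302983 and 37132274 in controls and between 34660211 and 38052705 in L-RalyKO livers. Raly itself was 6.34, 6.61 and 7.39 in L-RalyKO livers 1 to 3 and 50.1, 48.6 and 46.8 in control livers 1 to 3, a difference of -2.67 on the log2(value + 1) scale. Every library fitted its label. Hepatocyte markers (Alb, Ttr, Apoa1, Apob, Hnf4a and Tat) summed to 90218 to 91465 in L-RalyKO livers and 81370.5 to 90594.5 in controls. Most of each sum was Alb, at 70091 to 70819 in L-RalyKO livers and 63858 to 71897 in controls.

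ATF4 acts at a composite C/EBP-ATF element, also called the amino acid response element, whose core TGATGNAA was searched on both strands of RefSeq promoters (300 bases, from 250 before the start to 50 after it). The 10 genes had 12 such promoters, and the core was found in those of 4 genes, Atf3, Asns, Trib3 and Chac1. Among all 32851 mouse promoters of this length 3.97% held it. The windows around the 4 matches are shown because they hold the letters of that core. Each is written 5′ to 3′ on the strand of the gene, with the core in capitals. Atf3, Trib3 and Chac1 carry it in the opposite orientation.
Asns, chr6:7643214-7643243, minus strand: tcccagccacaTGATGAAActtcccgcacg
Atf3, chr1:193007304-193007333, minus strand: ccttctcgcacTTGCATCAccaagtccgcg
Chac1, chr2:119176774-119176803, plus strand: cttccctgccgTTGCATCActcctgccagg
Trib3, chr2:152169764-152169793, minus strand: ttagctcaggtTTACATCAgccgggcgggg

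The coordinates are those of NCBIM37 (mm9), to which each RefSeq promoter (GRCm38.p6) was matched exactly at a single place. The first base of the core lay at -23 from the start in Asns, at -110 in Atf3, at -193 in Chac1 and at 15 in Trib3. The full cAMP response element TGACGTCA, searched on both strands, was found in 1 of the 10 genes, Ppp1r15a, at -12, and in 1.79% of all promoters. CCAAT, the box bound by NFY, was found on either strand in 7 genes, Atf4, Atf5, Atf3, Ddit3, Psat1, Chac1 and Sesn2, and in 37.4% of all promoters. No match of one motif shared a base with a match of another in these genes. These are matches of letters, and binding was not analysed here.

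Asns, which encodes asparagine synthetase, had the largest difference of the 10 genes on the log2(value + 1) scale with all livers included. Without control 3 it differed by 0.73 and Chac1 by 1.11. The Asns promoter upstream of the start is given because of its rank with all livers. The core near its 3′ end is in capitals (chr6:7643210-7643459 of NCBIM37, minus strand).
Asns promoter: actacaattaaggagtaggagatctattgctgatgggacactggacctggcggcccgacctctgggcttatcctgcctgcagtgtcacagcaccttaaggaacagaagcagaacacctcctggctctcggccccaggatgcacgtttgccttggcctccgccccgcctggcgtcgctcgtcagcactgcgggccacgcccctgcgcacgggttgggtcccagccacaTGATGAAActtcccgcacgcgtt

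Among the 9 genes that passed the filter, 7 had a higher mean on the log2 scale in L-RalyKO livers (6 with total count scaling, where Trib3 turned) and 2, Atf5 and Ppp1r15a, a lower one. The number higher was 5 of 9 without control 1, 5 of 8 without L-RalyKO liver 1 and 8 of 9 without control 3. Omission of any other liver left it at 7 of 9. Over all 11580 genes tested 51.2% had a higher mean. The median difference of the 9 genes was 0.20 on the log2(value + 1) scale, against 0.00444 over all genes tested. In 3 of the 9, Atf4, Ddit3 and Asns, every L-RalyKO liver lay above every control liver, a pattern that 14.4% of all genes tested showed, and 28.1% of all genes had groups that did not overlap in either direction. No gene of the 9 had every L-RalyKO liver below every control, and 13.7% of all genes did. Of the 9, 1 gene (Asns) passed limma's test at an adjusted p of 0.05, as did 6.55% of all genes tested (389 higher and 369 lower, or 325 and 470 when libraries were scaled by total reads alone). Asns entered this comparison only through the knockout livers. Its call was lost with all genes with at least 1 read, and without L-RalyKO liver 2 or 3 or control 1 or 3. Without L-RalyKO liver 1 it fell below the filter. Nothing is read from these counts, since the genes were chosen with this contrast known.

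**Figure D1:**
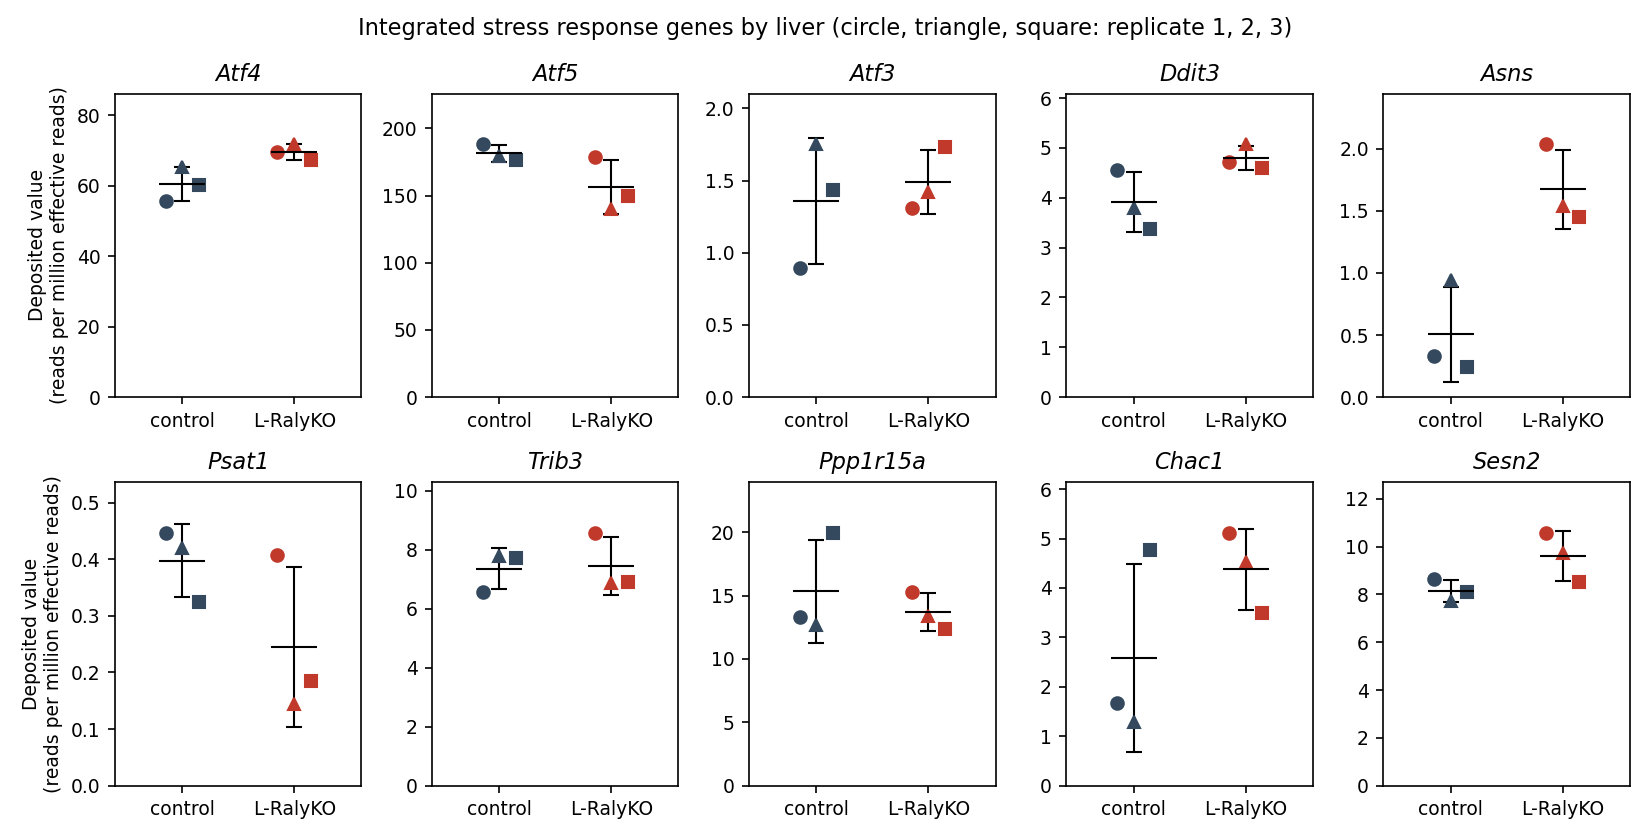
Deposited value of each of the 10 genes (scaled reads, linear axes that start at 0) in control and L-RalyKO livers, with circle, triangle and square for replicates 1, 2 and 3 and a bar for the mean ± SD. The L-RalyKO points of Asns, at 1.45 to 2.04, sit above all control points, and Chac1 in control 3 (4.76) sits among the L-RalyKO livers.

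Atf4, the central transcription factor of the response (ENSMUSG00000042406.6, chr15:80085614-80087970, plus strand), was 69.7, 71.9 and 67.2 in L-RalyKO livers 1 to 3 and 55.7, 65.5 and 60.1 in controls 1 to 3. The lowest knockout liver lay just above the highest control, so the groups did not overlap, but the gap was narrow. The means were 69.6 ± 2.32 and 60.5 ± 4.89 (SD, n = 3 each), a ratio of 1.15 and a log2 difference of 0.20 (SE 0.065). Leaving out each liver in turn gave differences between 0.15 and 0.26.

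Atf5, a related factor that is induced in parallel with ATF4 (chr7:52067627-52072028, minus strand), was 179, 140 and 150 in L-RalyKO livers 1 to 3 and 188, 179 and 176 in controls 1 to 3. L-RalyKO livers 2 and 3 were below all controls, and L-RalyKO liver 1 lay among them. The means were 156 ± 20.3 and 181 ± 6.20 (SD, n = 3 each), a ratio of 0.861 and a log2 difference of -0.22 (SE 0.085). Leaving out each liver in turn gave differences between -0.32 (without L-RalyKO liver 1) and -0.15 (without L-RalyKO liver 2). Atf4 and Atf5 thus differed from controls in opposite directions in their means. Atf5 shares 82 exonic bases (4.12% of its exons) with Nup62 and Il4i1 on the other strand.

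Atf3, a stress-induced repressor and activator downstream of ATF4 (chr1:192994175-193007219, minus strand), was scarce. It was 1.31, 1.42 and 1.74 in L-RalyKO livers 1 to 3 and 0.894, 1.75 and 1.43 in controls 1 to 3, from 160 and 133 reads in all. The groups overlapped over most of their range. The log2 difference of 0.09 (SE 0.15) became -0.06 without control liver 1.

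Ddit3, which encodes CHOP, the factor linked to cell death under lasting stress (chr10:126727830-126733344, plus strand), was 4.71, 5.08 and 4.60 in L-RalyKO livers 1 to 3 and 4.56, 3.79 and 3.38 in controls 1 to 3. All knockout livers were above all controls, by a margin of 4.60 against 4.56 at the nearest pair. The means were 4.798 ± 0.248 and 3.91 ± 0.600 (SD, n = 3 each), a ratio of 1.23 and a log2 difference of 0.25 (SE 0.11). Ddit3 shares 68 exonic bases (3.97% of its exons) with Mars on the other strand.

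Asns (ENSMUSG00000029752.6, chr6:7625169-7643254, minus strand), the enzyme that makes asparagine from aspartate and glutamine, was 2.04, 1.54 and 1.45 in L-RalyKO livers 1 to 3. In controls 1 to 3 it was 0.328, 0.947 and 0.243. Every knockout liver was above every control, and control 2 stood apart from the other two controls. The reads behind these values were few, at 70, 53 and 55 in L-RalyKO livers and 11, 27 and 9 in controls. The exact Poisson interval (95%, counting error only) of control 2, from 0.624 to 1.38, overlapped those of L-RalyKO liver 2, from 1.15 to 2.01, and L-RalyKO liver 3, from 1.09 to 1.88. The mean was 1.67 ± 0.317 against 0.506 ± 0.384 (SD, n = 3 each), a ratio of 3.31.

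The fitted difference of Asns depended on the scale because its values are close to the pseudocount. It was 0.85 (SE 0.18) as log2(value + 1), 1.71 (SE 0.40) as log2(value + 0.1), 1.78 by edgeR and 1.76 by DESeq2 on the reads. Leaving out each liver in turn gave 0.73 to 1.05 as log2(value + 1). Without L-RalyKO liver 1 the gene fell below the filter.

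Psat1, the phosphoserine aminotransferase of serine synthesis (chr19:15979168-16021827, minus strand), was barely detected. It was 0.407, 0.145 and 0.184 in L-RalyKO livers 1 to 3 and 0.447, 0.421 and 0.324 in controls 1 to 3, from 26 and 39 reads. L-RalyKO livers 2 and 3 lay below all controls and L-RalyKO liver 1 among them. A fit over all genes with at least 1 read gave a log2 difference of -0.17 (SE 0.082), and Psat1 was not part of the counts above. Psat1 values are uncertain, since they rest on few reads. The genome also holds similar copies of its transcript on chromosomes 1 (84.2% identity) and 11 (89.2% identity), and reads shared with them were not measured. Asns and Psat1, both enzymes of amino acid synthesis, thus had means that differed from controls in opposite directions.

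Trib3, a pseudokinase that ATF4 and CHOP induce and that restrains ATF4 (chr2:152163158-152169768, minus strand), was 8.58, 6.88 and 6.89 in L-RalyKO livers 1 to 3 and 6.56, 7.78 and 7.73 in controls 1 to 3. The groups overlapped, with L-RalyKO liver 1 above all controls and control 1 below all knockout livers. The log2 difference was 0.01 (SE 0.10, 95% interval -0.23 to 0.25), and its sign turned with total count scaling and without L-RalyKO liver 1 or control 1.

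Ppp1r15a encodes GADD34, which brings a phosphatase to eIF2 and so ends the response (chr7:52778286-52781638, minus strand). It was 15.3, 13.4 and 12.4 in L-RalyKO livers 1 to 3 and 13.4, 12.7 and 19.98 in controls 1 to 3. Control 3 was the highest of the 6 livers, and the others overlapped. The log2 difference was -0.13 (SE 0.16, 95% interval -0.49 to 0.22), and it was 0.06 without control 3.

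Chac1, an enzyme that degrades glutathione (chr2:119176965-119180117, plus strand), had the second largest difference on the log2(value + 1) scale with all livers included. It was 5.12, 4.53 and 3.50 in L-RalyKO livers 1 to 3 and 1.67, 1.30 and 4.76 in controls 1 to 3. Control 3 was as high as the knockout livers, while controls 1 and 2 were below all of them. The means were 4.38 ± 0.819 and 2.57 ± 1.90 (SD, n = 3 each), a ratio of 1.70 and a log2 difference of 0.70 (SE 0.31). Without control 3 the difference was 1.11, and the other omissions gave 0.45 or more.

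Sesn2, which restrains mTORC1 when leucine is short (chr4:132047947-132066416, minus strand), was 10.6, 9.75 and 8.53 in L-RalyKO livers 1 to 3 and 8.64, 7.71 and 8.08 in controls 1 to 3. L-RalyKO livers 1 and 2 were above all controls, and L-RalyKO liver 3 was just below control 1. The means were 9.62 ± 1.04 and 8.15 ± 0.468 (SD, n = 3 each), a ratio of 1.18 and a log2 difference of 0.21 (SE 0.090).

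**Figure D2:**
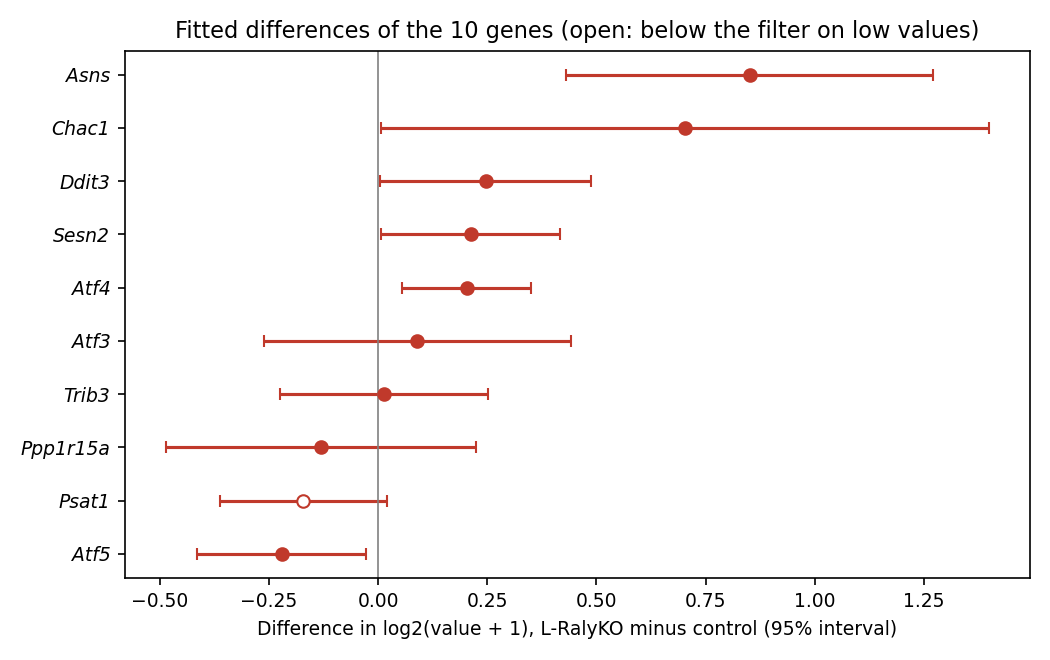
Fitted difference in log2(value + 1), L-RalyKO minus control, of the 10 genes with its 95% interval (n = 3 each), ordered by size, with an open point for Psat1, which lay below the filter. Asns (0.85) and Chac1 (0.70) lie apart from the others, whose points are between -0.22 and 0.25.

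Of the 9 genes, 7 had 95% intervals inside a 2-fold change in either direction, from -0.49 to 0.49 on the log2(value + 1) scale, and the same number did as log2(value + 0.1), from -0.51 to 0.73. The exceptions were Asns and Chac1. L-RalyKO liver 1 was the highest of its group for 7 of the 10 genes, and for 32.7% of all genes tested. L-RalyKO liver 3 was the lowest for 6, and for 37.9% of all genes tested.

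Per kilobase of exon, the order in control livers was Atf5 (91.1), Atf4 (35.1), Ppp1r15a (5.22), Trib3 (3.46), Sesn2 (2.34), Ddit3 (2.28), Chac1 (1.57), Atf3 (0.686), Asns (0.185) and Psat1 (0.0934), as mean levels. Neighbours whose control livers overlapped were Sesn2 and Ddit3, Ddit3 and Chac1, Chac1 and Atf3, and Asns and Psat1. The mean level of Asns in L-RalyKO livers was 0.612 ± 0.116 per kilobase (SD), still below the mean levels of the factors Atf4, Atf5, Atf3 and Ddit3 in controls. Its gap to Atf3 (0.686 ± 0.219 in controls) was smaller than either SD.

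The genes whose pattern over the 6 livers was closest to that of Asns were Lmbr1l, Tob1, Rhbdf2, Pdp2 and Slc25a34, by root mean square distance of log2(value + 1) after the control mean was subtracted (0.133 to 0.147, against a median of 0.646 over 11579 genes). Tob1, an antiproliferative protein, was 200.1, 199 and 178 in L-RalyKO livers 1 to 3 and 99.3, 125 and 105 in controls 1 to 3. Like Asns, it was highest in control 2 among controls and lowest in L-RalyKO liver 3 among knockouts. This likeness belongs to the scale. As log2(value + 0.1) Asns differed by 1.71 between the groups and these 5 genes by 0.72 to 1.032. The other tested members lay at 0.493 for Atf4 to 0.787 for Atf5 from Asns on the first scale. These distances fall on both sides of the median of 0.646 over all genes.

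The rest of the ATF4 pathway was described with 65 further genes, of which 55 passed the filter. By limma with Benjamini-Hochberg adjustment over all 11580 genes 1 rose and 2 fell, against 3.36% and 3.19% of all genes tested. The remaining 52 did not pass, and 13 of the 55 had an unadjusted p under 0.05, as had 22.7% of all genes tested. This share is the one to read the unadjusted counts of the groups below against. The median difference was -0.0225 on the log2(value + 1) scale, with 26 means higher and 29 lower. DESeq2 called 1084 of the 11580 genes and limma 758, so counts by DESeq2 below are to be read against the larger number.

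Slc6a9, a glycine transporter, rose. It was 82.6, 87.9 and 90.1 in L-RalyKO livers 1 to 3 and 72.5, 68.1 and 70.0 in controls 1 to 3, with no overlap (log2 difference 0.30, SE 0.052, limma adjusted p = 0.013). It was the 1 called gene of the 6 amino acid transporters tested. Slc7a5, a subunit of a leucine transporter, was 2.36 to 2.73 in L-RalyKO livers and 2.17 to 2.76 in controls. Slc7a1, Slc7a3 and Slc7a11 were below the filter.

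Tars, the threonyl-tRNA synthetase, fell. It was 77.1, 74.5 and 80.5 in L-RalyKO livers 1 to 3 and 100.4, 86.5 and 99.6 in controls 1 to 3, with no overlap (log2 difference -0.30, SE 0.066, limma adjusted p = 0.0354). The call was lost in 7 of the 13 alternatives, where the adjusted p reached 0.115. The other 12 of the 13 genes of tRNA charging and export did not pass by limma, edgeR or DESeq2, with differences between -0.17 and 0.10. With total count scaling Xpot, which exports tRNA from the nucleus, passed as well (lower).

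Vldlr, the very low density lipoprotein receptor, fell as well. It was 1.75, 2.35 and 1.58 in L-RalyKO livers 1 to 3 and 3.79, 3.26 and 3.78 in controls 1 to 3, with no overlap (log2 difference -0.68, SE 0.12, limma adjusted p = 0.0155). Without L-RalyKO liver 1 or control 1 the call was lost (adjusted p up to 0.0606). The other 9 tested genes of the group of stress outputs did not pass by limma or edgeR. DESeq2 called 3 of them as higher, Bbc3, Gdf15 and Map1lc3b. Of all 10 genes, 6 had an unadjusted p under 0.05. Among them Ddit4, an inhibitor of mTORC1, was 6.57, 6.82 and 15.2 in L-RalyKO livers and 19.7, 16.5 and 40.2 in controls (log2 difference -1.32, adjusted p = 0.0661), and it is named after its values were seen. Ddit4 passed with a replicate block and without L-RalyKO liver 3, and without that liver Bbc3 passed as well (higher). Fgf21 and Gdf15 are hormones that the stressed liver releases. Gdf15 was 5.61, 3.92 and 2.89 in L-RalyKO livers 1 to 3 and 2.24, 2.10 and 3.08 in controls 1 to 3. Its log2 difference was 0.54 (limma adjusted p = 0.134), and that of Fgf21 was -0.16 (limma adjusted p = 0.601).

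Upstream of ATF4, none of the 15 genes of eIF2, its exchange factor, its kinases and their partners passed by limma or edgeR, 2 had an unadjusted p under 0.05 and DESeq2 called 1, Eif2ak3. Eif2ak3, which encodes PERK, the kinase of the endoplasmic reticulum, was 22.7, 12.5 and 21.2 in L-RalyKO livers 1 to 3 and 12.3, 11.3 and 13.8 in controls 1 to 3. L-RalyKO liver 2 lay among the controls and the others above them (log2 difference 0.51, SE 0.19, limma adjusted p = 0.151). Without that liver the difference was 0.77 and passed limma's threshold, and the lowest difference with another liver left out was 0.36. The kinases of heme shortage (Eif2ak1), double-stranded RNA (Eif2ak2) and amino acid shortage (Eif2ak4) differed by 0.09, -0.10 and -0.09 (adjusted p = 0.38, 0.498 and 0.514).

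Of the genes of amino acid synthesis besides Asns and Psat1, 8 of 13 passed the filter and none passed the test by limma, edgeR or DESeq2, while 2 had an unadjusted p under 0.05. Their median difference was 0.003. Phgdh, which makes the substrate that Psat1 uses, was below the filter, as were Mthfd2, Aldh1l2, Aldh18a1 and Pycr1. Got1, the cytosolic aspartate aminotransferase and named after its values were seen, was 451, 427 and 397 in L-RalyKO livers 1 to 3 and 213, 244 and 372 in controls 1 to 3 (log2 difference 0.66, adjusted p = 0.0594). It passed without control 3, and Cbs, an enzyme of cysteine synthesis, passed as lower without L-RalyKO liver 1. Of the partners of ATF4, 3 of 4 were tested and none passed by limma, edgeR or DESeq2, with none at an unadjusted p under 0.05. Cebpb was 143 to 177 in L-RalyKO livers and 164 to 176 in controls.

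**Figure D3:**
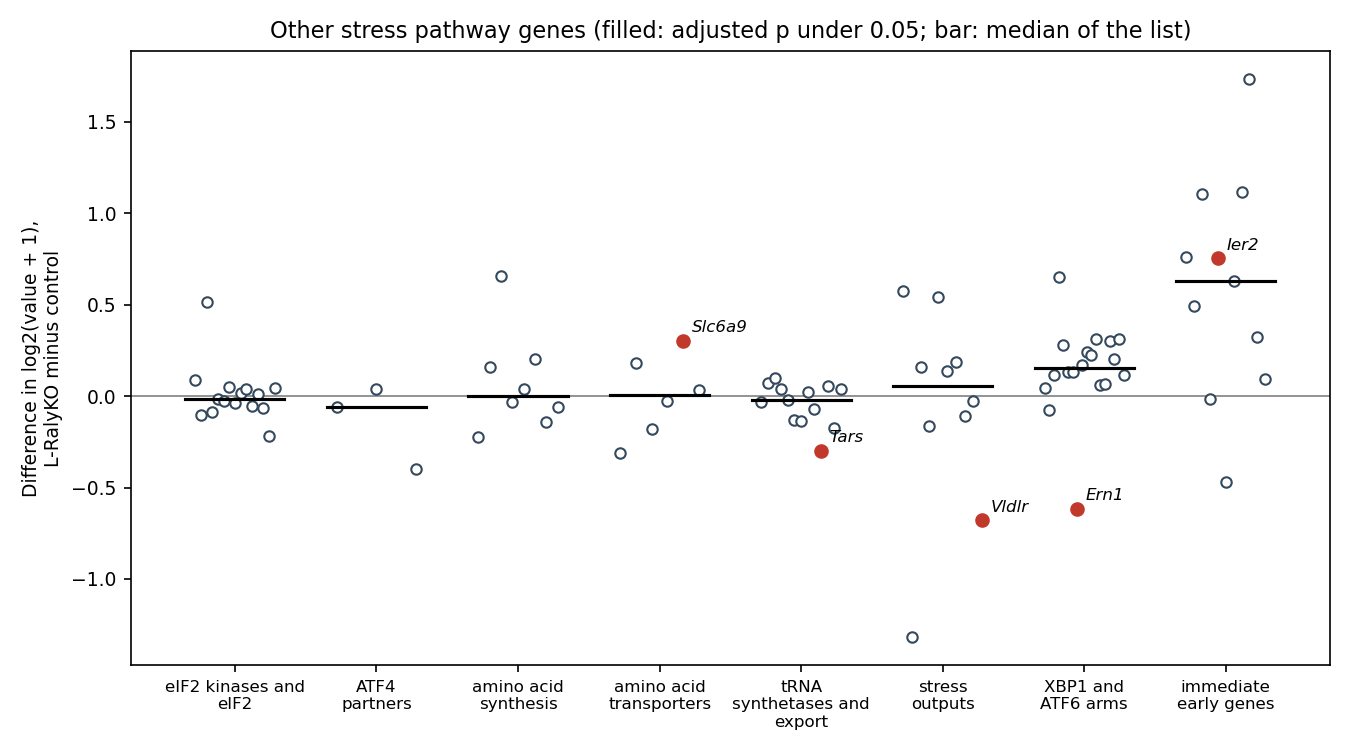
Difference in log2(value + 1), L-RalyKO minus control, of every tested gene in 6 groups of other ATF4-pathway genes, in the XBP1 and ATF6 arms and among immediate early genes, with the median of each group as a bar. Filled points are genes with an adjusted p under 0.05 by limma, Slc6a9, Tars, Vldlr, Ern1 and Ier2, and the groups of the ATF4 pathway lie around 0.

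Misfolded protein in the endoplasmic reticulum also acts through IRE1, which splices Xbp1, and through ATF6, and both arms raise chaperones. All 18 genes listed for these arms were tested, 16 had a higher mean in L-RalyKO livers under every scaling tried, and the median difference was 0.15. By limma 1 of the 18 passed. Ern1, which encodes IRE1, fell, at 41.0, 32.3 and 35.2 in L-RalyKO livers 1 to 3 and 52.4, 51.1 and 64.5 in controls 1 to 3 (log2 difference -0.62, SE 0.11, adjusted p = 0.0137). Xbp1 differed by 0.11 (adjusted p = 0.419), and spliced and unspliced forms were not distinguished.

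L-RalyKO liver 2 differed from the other knockout livers in this group. It was the lowest knockout liver for 16 of the 18 genes (88.9%), as it was for 31.6% of all genes tested. L-RalyKO livers 1 and 3 were above all controls for 15 of the 18 (83.3%), and for 19.4% of all genes tested. Hspa5, the chaperone BiP, was 920, 498 and 893 in L-RalyKO livers 1 to 3 and 657, 636 and 594 in controls 1 to 3 (log2 difference 0.24, SE 0.20, adjusted p = 0.535). L-RalyKO liver 2 was below all controls and the other knockout livers above them. The same held for Manf, Hyou1, Dnajb9, Sel1l, Syvn1 and Pdia4, whereas Creld2, at 54.2, 20.5 and 45.5 in L-RalyKO livers 1 to 3, was within the control range (20.3 to 25.6) in liver 2. Over the 18 genes L-RalyKO liver 2 was below all controls for 9 and above all for 4, and over all genes tested the shares were 30.3% and 32.2%.

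Without L-RalyKO liver 2, 8 of the 18 genes passed by limma, where 3.80% of all genes did, and leaving out any other liver gave 1. That liver was singled out for its low values in these same genes, so this count is a description. Ern1 was still lower, and Creld2, Dnajb9, Hspa5, Hyou1, Manf, Sel1l and Syvn1 were higher, where 1.90% of all genes were. Hspa5 then differed by 0.53 on the log2 scale, but by 0.08 without L-RalyKO liver 1 and by 0.11 without L-RalyKO liver 3. Among the 10 ATF4 genes L-RalyKO liver 2 was the lowest knockout for 3, and for 31.6% of all genes tested. Without it the differences of Asns, Atf4 and Ddit3 were 0.89, 0.18 and 0.21, and that of Atf5 was -0.15 in place of -0.22.

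**Figure D4:**
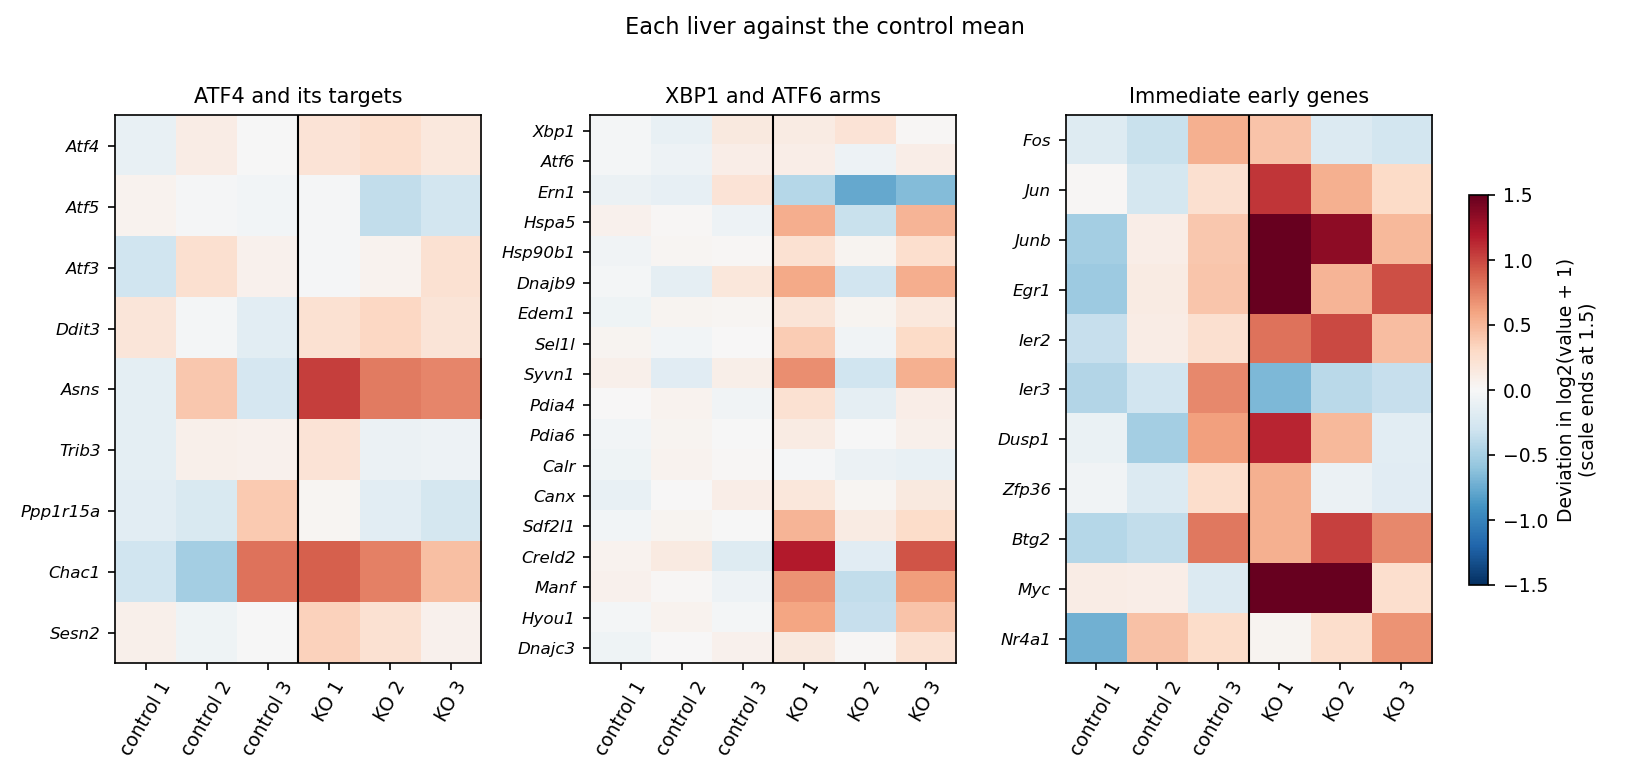
Deviation of each liver from the control mean in log2(value + 1), red above and blue below, for the 9 tested genes of ATF4 and its targets, the 18 genes of the XBP1 and ATF6 arms and 11 immediate early genes, with the colour scale ended at 1.5. In the middle panel KO 2 is pale or blue for most genes where KO 1 and KO 3 are red, whereas the row of Asns is red in all 3 knockout livers.

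Immediate early genes, which also respond to handling of the tissue, had a higher mean in L-RalyKO livers for 9 of the 11 tested. Of 12 listed, 1 rose by limma (Ier2, from 9.24 to 14.5 in controls and from 17.0 to 24.98 in L-RalyKO livers, adjusted p = 0.0376), and the median difference was 0.63. Of the 11, 6 had an unadjusted p under 0.05, as had 22.7% of all genes tested. In 5 every L-RalyKO liver was above every control, as in 14.4% of all genes tested. DESeq2 called 3 (Ier2, Junb and Myc), total count scaling 2 (Ier2 and Junb) and the replicate block 1 (Myc). The call of Ier2 was lost without L-RalyKO liver 1 or 2, without control 1 or 2, with a replicate block, without an intensity trend and with all genes with at least 1 read. Without L-RalyKO liver 3 the calls were 3 (Ier2, Junb and Myc), and without control 3 they were 3 (Btg2, Ier2 and Junb). The list summed to 196 to 347 in L-RalyKO livers and 154.5 to 234 in controls. L-RalyKO liver 1 had the highest sum and L-RalyKO liver 3 the lowest of their group, and in 7 of the 10 ATF4 genes liver 1 was also the highest. In controls the highest sum was in control 3. That liver was the highest control for 2 of the 10 ATF4 genes, Chac1 and Ppp1r15a, and the lowest control for 4, among them Asns. The matching shares over all genes tested were not computed for control livers, so nothing is read from these counts. The part of the immediate early genes in these values was not tested.

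Markers of other liver cells were present in both groups, with none at 0 in all livers. The sums of the groups overlapped for each list except that of lymphocytes and neutrophils. Kupffer cell markers summed to 129 to 166 in L-RalyKO livers and 123.5 to 183 in controls, endothelial markers to 134.5 to 170.2 and 151 to 161, and stellate cell markers to 199.97 to 257 and 214 to 231. None of these 15 genes passed by limma, edgeR or DESeq2, and none had an unadjusted p under 0.05. Cholangiocyte markers summed to 32.2 to 41.0 and 32.5 to 34.7, with L-RalyKO liver 3 the highest. Of 3 tested none passed by limma or edgeR, 1 had an unadjusted p under 0.05, and DESeq2 called 1, Sox9. Sox9 was above all controls in every L-RalyKO liver (4.29 to 5.88 against 2.46 to 4.05), and also passed with the replicate block and without control 1. Markers of lymphocytes and neutrophils were below the filter and summed to 1.53 to 1.89 and 1.95 to 3.23. All 6 hepatocyte markers had a higher mean in L-RalyKO livers (5 with total count scaling), and 1 rose by limma, Hnf4a, at 899.6, 809 and 829 in L-RalyKO livers 1 to 3 and 520.3, 542 and 680.5 in controls 1 to 3 (log2 difference 0.55, adjusted p = 0.0155). This call was lost without L-RalyKO liver 1 and without control 1 or 2. DESeq2 called Apoa1 as well, which was above all controls in every L-RalyKO liver.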

How the data were processed

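Liver RNA-seq of 3 L-RalyKO and 3 control mice was used. Libraries were made with a stranded kit, and the methods give TopHat v2.0.2, mm9 and FPKM values of Cufflinks 2.0.2. The deposited values are instead a normalized signal, read counts of each gene over the effective size of its library, whose scaling equals that of TMM in edgeR. The counter is not given in the sources used here. All positive values (100% in each library, tolerance 0.01) were whole multiples of 1 read, so that reads were recovered, and a value of 3 reads was 0.0789 to 0.105. Groups were compared with limma 3.58.1 (R 4.3.3, intensity trend) on log2(value + 1) among 11580 genes with a mean of at least 1, with Benjamini-Hochberg adjustment. EdgeR 4.0.16 and DESeq2 1.42.0 on the recovered reads, total count scaling, no filter, a pseudocount of 0.1, no trend, a replicate block and omission of each liver were alternatives. The fits were first tested on simulated data.

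An exact permutation test of 3 against 3 livers has 0.10 as its smallest p. Intervals are at the 95% level. Coordinates and exon lengths come from GENCODE vM1 on NCBIM37. Same-numbered mice were not paired, since their correlations of deviations from the group means were 0.066, -0.024 and 0.020. The 10 genes, the gene lists and the tests were chosen with earlier results of these data known. Genes named are the 10, Raly, the eIF2 kinases, Xbp1, Hspa5, list genes of the ATF4 pathway and of the XBP1 and ATF6 arms with an adjusted p under 0.05 and the 5 genes closest to Asns. All others named were picked after their values were seen. No table column lacked a sample.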

Additional observations from a re-analysis of the deposited data

How the results depend on the processing

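The number of genes called by limma over the whole table was 758, and it was 484 when all genes with at least 1 read were tested and between 335 and 812 when each liver was left out in turn. For the 10 ATF4 genes the count called was 1 in the main setting, 0 with all genes with at least 1 read (with an unadjusted p under 0.05 for 6 of 9 in the main setting, where 22.7% of all genes had one, and for 3 of 10 here, where 17.8% had), and 0 to 1 with each liver left out. Among these omissions Asns was called only without control replicate 2. None of the 10 was called without L-RalyKO replicate 2, L-RalyKO replicate 3 or control replicate 1, and the gene called was Atf5 (lower) without L-RalyKO replicate 1, where Asns fell below the filter, and Chac1 without control replicate 3. The other ATF4-pathway genes called were 3, and 1 to 4 with each liver left out. DESeq2 called 7 of them, and 1084 genes over the table. The XBP1 and ATF6 arms gave 1 call, and 1 to 8 with each liver left out, the 8 without L-RalyKO replicate 2. With a replicate block 704 genes were called over the table, 1 of the 10, 4 other ATF4-pathway genes and 1 of the arms, and the samples shared only a number.

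Of the 10 genes, 6 kept the sign of their difference in each alternative in which they were tested, Atf3, Trib3 and Ppp1r15a did not, and Psat1 was fitted in 1 setting alone, with all genes with at least 1 read. Asns and Psat1 rest on 178 and 26 reads over the L-RalyKO livers and 47 and 39 over the controls, and these reads limit the precision of their values.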
